A study of Mus musculus with 6 samples.

Results

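The 7 genes for inhibitors of cyclin-dependent kinases (CDKs), Cdkn1a, Cdkn1b, Cdkn1c, Cdkn2a, Cdkn2b, Cdkn2c and Cdkn2d, were examined together with Trp53, which encodes p53, and Mdm2, which encodes the ligase that degrades it. They were chosen by symbol, and all 9 were found among the 49315 genes of the deposited table. The table held 6 libraries of total RNA, depleted of ribosomal RNA, from mouse embryonic fibroblasts, a mixed mesenchymal culture grown out of E13.5 embryos and collected at passage 0 after 2 days in six-well plates. In 3 libraries the cells were wild-type, Acvr1+/+, and in 3 they were Acvr1R206H/+, with 1 mutant allele, called R206H below. The gene Acvr1 makes a receptor kinase that answers bone morphogenetic proteins, and R206H is the change best known from patients with fibrodysplasia ossificans progressiva (FOP), in whom soft tissue turns to bone. The design text states that each genotype had 3 biological replicates. The labels used here do not say which embryo each library came from, or whether a library pooled embryos, so p-values measure the spread between these libraries.

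CDK inhibitors bind kinases that drive the cell cycle and slow or stop them. The INK4 proteins p16 (from Cdkn2a), p15 (Cdkn2b), p18 (Cdkn2c) and p19 (Cdkn2d) bind CDK4 and CDK6, whereas the CIP/KIP proteins p21 (Cdkn1a), p27 (Cdkn1b) and p57 (Cdkn1c) bind complexes of cyclins with several CDKs. Cdkn2a also encodes ARF, in another reading frame, which holds back MDM2 and so stabilizes p53. p53 is a transcription factor activated by DNA damage and other stress, and Cdkn1a and Mdm2 are among its best known targets. In cultured mouse embryonic fibroblasts the products of Cdkn2a and p53 are known for limiting how long the cells divide.

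The starts of 3 members are shown as a description, chosen for the reasons that follow. Whether the values below depend on these sequences was not tested. Cdkn2b was the gene that passed the test, Cdkn2a has 2 starts that the deposited value joins, and Cdkn1a had a difference of the opposite sign to that of Trp53, whose product regulates it. The sequences come from RefSeq on GRCm38.p6, run 5′ to 3′ on the gene's own strand, and stop where GENCODE release M21 places the first exon. In the first sequence the capitals mark matches to the p53 consensus decamer and the hexamer ACATGT, and in the third they mark GGGCGG, the GC box bound by Sp1. No capitals were set in the other sequences.
Cdkn1a, upstream start, chr17:29090729-29090975, plus strand: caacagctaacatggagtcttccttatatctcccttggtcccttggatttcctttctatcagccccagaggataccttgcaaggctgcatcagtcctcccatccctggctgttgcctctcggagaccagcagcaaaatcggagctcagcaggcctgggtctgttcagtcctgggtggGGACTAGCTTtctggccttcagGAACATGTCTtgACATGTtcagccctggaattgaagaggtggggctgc
Cdkn2b, chr4:89311040-89311282, minus strand: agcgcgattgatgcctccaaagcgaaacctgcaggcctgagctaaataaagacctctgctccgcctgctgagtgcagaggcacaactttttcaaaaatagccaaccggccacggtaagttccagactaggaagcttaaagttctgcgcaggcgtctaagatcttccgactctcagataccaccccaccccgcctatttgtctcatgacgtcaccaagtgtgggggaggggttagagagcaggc
Cdkn2a, upstream start, chr4:89294654-89294869, minus strand: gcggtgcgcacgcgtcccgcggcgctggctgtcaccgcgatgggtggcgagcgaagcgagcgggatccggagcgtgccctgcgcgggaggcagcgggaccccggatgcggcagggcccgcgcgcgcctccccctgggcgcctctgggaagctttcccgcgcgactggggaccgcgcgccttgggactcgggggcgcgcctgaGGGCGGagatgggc
Cdkn2a, downstream start, chr4:89282193-89282442, minus strand: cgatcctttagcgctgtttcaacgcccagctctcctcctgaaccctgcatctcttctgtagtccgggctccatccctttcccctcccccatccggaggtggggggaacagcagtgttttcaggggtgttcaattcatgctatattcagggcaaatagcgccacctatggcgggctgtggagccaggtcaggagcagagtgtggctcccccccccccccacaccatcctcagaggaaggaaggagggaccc

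The Cdkn1a sequence held 2 matches to the decamer, beginning 73 and 51 bases before the RefSeq start. It also held ACATGT 2 times, beginning 49 and 39 bases before that start. The other RefSeq start of Cdkn1a, at chr17:29093769, had 0 matches to the decamer and 0 to ACATGT in the 250 bases upstream. Among 32851 RefSeq starts, 7.13% had at least 1 decamer in the 250 bases upstream on either strand, and 0.259% had at least 2. For ACATGT, which reads the same on both strands, those shares were 4.58% and 0.247%, and its first copy overlaps the second decamer. The table of RefSeq starts used here covered 8 of the 9 members, all but Cdkn1c, with 11 starts. A decamer was found at 4 of the 11, in Cdkn1a, Cdkn2d, Mdm2 and Trp53. These counts use the 250 bases before each RefSeq start, without stopping at the first exon of GENCODE. At Cdkn2d part of these bases, with the decamer, lie in that exon, and at 1 start of Cdkn2c all of them do. GGGCGG, searched on both strands, was found at 6 of 11 starts against 32.7% of all starts. For letters known to be bound by SMADs, which carry the signal of the receptor, GGCGCC was at 3 of 11 against 9.59% and CAGAC at 5 of 11 against 42.2%, on either strand. These matches describe letters and not binding.

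The labels were first set beside marker genes. Fibroblast markers were present in every library. The 12 of them summed to 7840 to 9680 TPM (transcripts per 1000000, a length-corrected share of a library) in wild-type and 11600 to 14500 TPM in R206H. Within these sums, Col1a1 alone had means of 2210 and 4880 TPM, and Vim had 3200 and 3120 TPM, wild-type first. Of the 12, 11 had a positive log2 value, R206H minus wild-type. None passed the limma test described below, and 7 had an unadjusted p under 0.05, against 26.1% of all genes. By voom, the second test below, 7 were called higher, against 4.61%. Endothelial markers summed to 15.2 to 37.3 TPM against 8.74 to 15.2, macrophage markers to 65.7 to 102 against 55.5 to 123, muscle markers to 443 to 629 against 401 to 705, and neural markers to 64.8 to 76.3 against 94.4 to 108 TPM, wild-type first. Of the neural markers, Prph and Tubb3 rose and Sox10 fell. The 12 epithelial markers summed to 545 to 638 TPM in wild-type and 197 to 400 TPM in R206H. Among them, Grhl2 was too low to be tested in either genotype. It had 0.13 to 0.23 TPM in wild-type, 0.03 TPM in R206H library 1 and 0 in R206H libraries 2 and 3. Of 7 erythroid markers, 5 globin genes were listed at 0 in all libraries. The share of TPM from mitochondrial genes was 4.16% to 4.57% in wild-type and 3.43% to 3.85% in R206H. Wild-type library 1 stood apart on the second principal component, at 34.1 against -16.3 to 4.8. The part of the epithelial, neural and fibroblast markers and of the mitochondrial share in the members' values was not tested. Acvr1 itself had 34.7 ± 1.01 TPM in wild-type and 44.4 ± 2.69 TPM in R206H (log2 value 0.35, adjusted p = 0.0511), which does not check the genotype of a point mutation.

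Of 14818 genes tested, 303 (2.04%) passed an adjusted p of 0.05, and 1 of the 9 members did, Cdkn2b, which was higher in R206H cells. The test was limma with Benjamini-Hochberg adjustment over all genes, on log2 of TPM + 1. Genes that passed upward made up 1.26% of those tested and genes that passed downward 0.79%. At an adjusted p under 0.10 there were 5 of 9 members against 12.1% of all genes, and at an unadjusted p under 0.05 there were 8 of 9 against 26.1%. The 2 groups of libraries did not overlap for any of the 9 members, with 6 members higher in R206H and 3 lower, while 32.9% of all genes tested had groups that did not overlap, 17.9% upward and 15% downward. The median log2 change was 0.33 over the members and 0.02 over all genes tested. A second test, limma voom on reads rebuilt from TPM and gene length, called 4 of 9 members against 8.73% of genes, with Cdkn2b, Cdkn2a and Cdkn1a higher (4.61% of all genes) and Cdkn1c lower (4.12%).

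**Figure D1:**
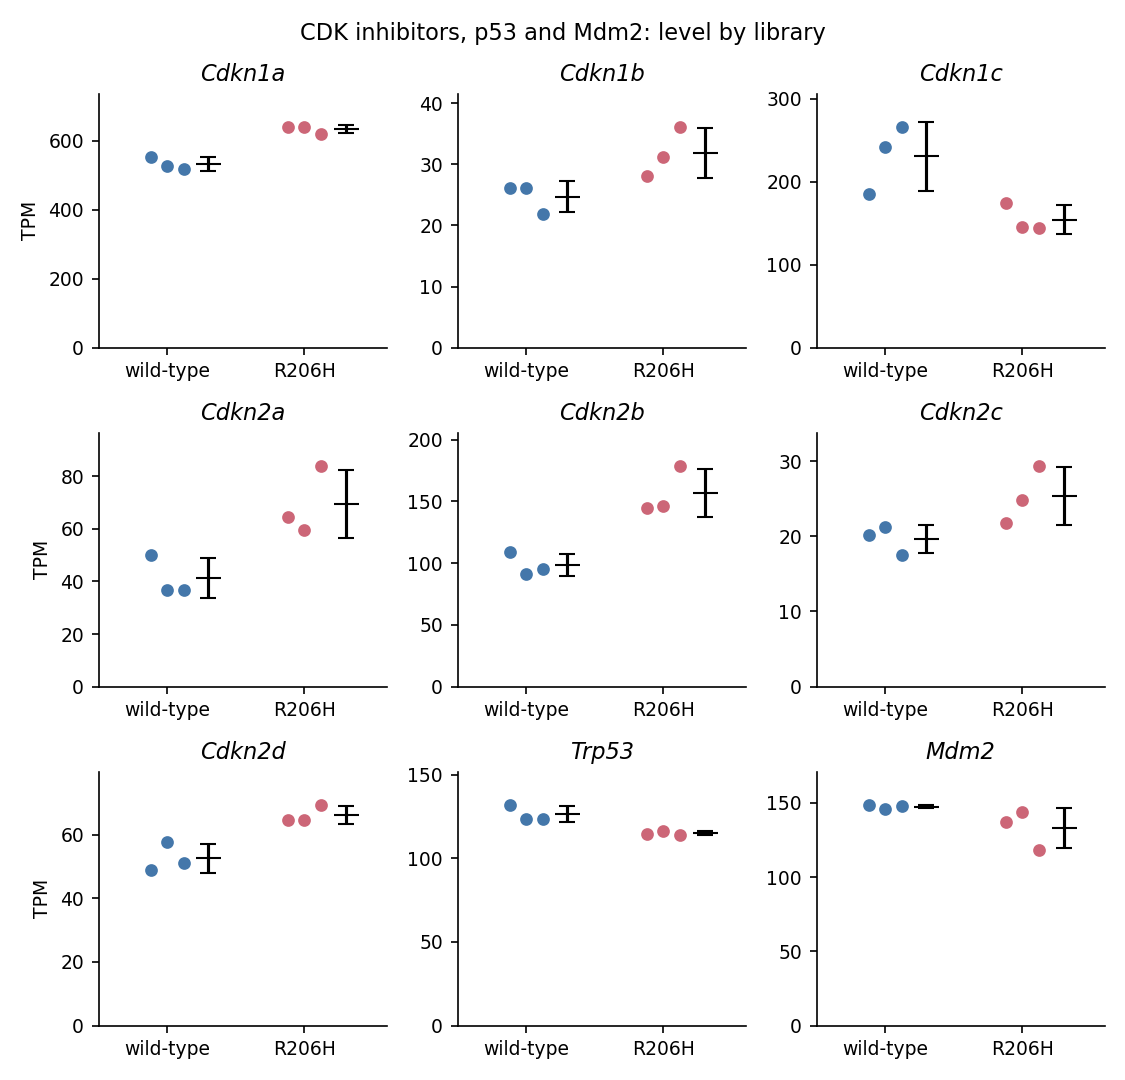
Level of each member in TPM (vertical axes, from 0) in the 3 wild-type and 3 R206H libraries (points, replicates 1 to 3 from left to right), with mean and SD as bars. In all 9 panels the points of the genotypes do not overlap: 6 genes are higher in R206H, and Cdkn1c, Trp53 and Mdm2 are lower.

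Among the INK4 genes, Cdkn2b (ENSMUSG00000073802, chr4:89306299-89311039 on GRCm38), which encodes p15, had 108.8, 91.5 and 95.5 TPM in wild-type libraries 1, 2 and 3 and 144.6, 146.1 and 179 TPM in R206H libraries 1, 2 and 3. Every R206H library was above every wild-type library, and R206H library 3 was the highest. The mean rose from 98.6 ± 9.07 to 157 ± 19.4 TPM (SD, n = 3), 1.59 times, with a log2 change of 0.66 (SE 0.103, limma adjusted p = 0.0462). With voom the adjusted p was 0.0166. Cdkn2b did not pass when wild-type library 2 or 3 or R206H library 2 or 3 was left out, with limma adjusted p of 0.135, 0.162, 0.152 and 0.0832 and log2 changes of 0.61, 0.64, 0.70 and 0.56.

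Cdkn2a (ENSMUSG00000044303, chr4:89274471-89294653), the gene for p16 and ARF, lies 11646 bases from Cdkn2b on the same strand. It had 49.9, 36.7 and 36.9 TPM in the wild-type libraries and 64.5, 59.6 and 84 TPM in the R206H libraries, so wild-type library 1 was the highest of its group and R206H library 3 the highest of all. The means were 41.2 ± 7.58 and 69.4 ± 12.9 TPM, a ratio of 1.69, the largest among the members. The log2 value of 0.74 (SE 0.163) did not pass with limma (adjusted p = 0.0618) and passed with voom (adjusted p = 0.0305). It passed with limma without wild-type library 1, at 0.88 (adjusted p = 0.0485). With any other library left out it lay between 0.59 and 0.84 and did not pass (adjusted p of 0.0675 to 0.195).

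The deposited Cdkn2a value covers both starts shown above. In GENCODE the transcript from the upstream start, with 169 codons, and that from the downstream start, with 168 codons, share 575 nt and have 320 and 277 nt of their own, so p16 and ARF transcripts were not separated. Cdkn2a and Cdkn2b are paralogs. Their longest identical coding run was 23 nt, shorter than the paired reads that the labels describe, and shown as the stretch in which the 2 genes cannot be told apart:
Cdkn2a and Cdkn2b: cgggaaggcttcctggacacgct
The ratio of Cdkn2b to Cdkn2a was 2.18, 2.49 and 2.59 in the wild-type libraries and 2.24, 2.45 and 2.13 in the R206H libraries, so these groups overlapped (exact two-sided permutation p = 0.4, where 0.1 is the smallest that 3 against 3 libraries allow).

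Cdkn2d (ENSMUSG00000096472, chr9:21288410-21291407), the gene for INK4 protein p19, had 49, 57.6 and 50.9 TPM in wild-type and 64.5, 64.7 and 69.4 TPM in R206H. The mutant libraries were closer together than the wild-type ones. The means were 52.5 ± 4.48 and 66.2 ± 2.77 TPM, with a log2 value of 0.33 (SE 0.0756) that did not pass with limma (adjusted p = 0.0655) or voom (adjusted p = 0.0809). Cdkn2c (ENSMUSG00000028551, chr4:109660876-109667189), which encodes p18, was the lowest member in both genotypes. It had 20.2, 21.2 and 17.5 TPM in wild-type and 21.8, 24.8 and 29.4 TPM in R206H, so the groups were separated only by the gap between wild-type library 2 and R206H library 1. Its log2 value of 0.34 (SE 0.125) did not pass with limma (adjusted p = 0.148) or voom (adjusted p = 0.158).

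Among the CIP/KIP genes, Cdkn1a (ENSMUSG00000023067, chr17:29090976-29100727), the gene for p21, was the most abundant member in both genotypes. It had 554.7, 526.1 and 517.9 TPM in the wild-type libraries and 641.6, 641.4 and 620.8 TPM in the R206H libraries. The spread within each genotype was small beside the difference. The means were 533 ± 19.3 and 635 ± 12 TPM, 1.19 times, with a log2 value of 0.25 (SE 0.0504) that did not pass with limma (adjusted p = 0.0543) and passed with voom (adjusted p = 0.0407). Its adjusted p ran from 0.0173 to 0.188 over the 18 alternatives.

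Cdkn1c (ENSMUSG00000037664, chr7:143458339-143461050), the imprinted gene for p57, was the CDK inhibitor with the opposite direction. It had 184.9, 241.1 and 266.2 TPM in the wild-type libraries and 173.9, 145.1 and 143.7 TPM in the R206H libraries. Wild-type library 1 lay close to R206H library 1, and the other wild-type libraries lay well above. The means were 231 ± 41.6 and 154 ± 17 TPM, and the log2 value of -0.57 (SE 0.142) did not pass with limma (adjusted p = 0.0744) and passed with voom (adjusted p = 0.0364). Without wild-type library 1 the limma value was -0.72 and passed (adjusted p = 0.0439). With any other library left out it lay between -0.66 and -0.46 and did not pass (adjusted p of 0.0613 to 0.209). An antisense gene model, Gm44732, overlaps 625 nt of its exons at 1 to 2.78 TPM, and the strand setting of the counting is not given in the sources used here.

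Cdkn1b (ENSMUSG00000003031, chr6:134920401-134925513), which encodes p27, had 26.1, 26.2 and 21.8 TPM in wild-type and 28.1, 31.1 and 36.2 TPM in R206H. Within each genotype the libraries differed by more than the gap between the genotypes. Its log2 value of 0.35 (SE 0.115) did not pass with limma (adjusted p = 0.123) or voom (adjusted p = 0.0957). The protein level of p27 is known to be set largely by degradation, which RNA values do not show.

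Trp53 (ENSMUSG00000059552, chr11:69580359-69591873) had 132, 123.7 and 123.2 TPM in the wild-type libraries and 114.7, 116.5 and 114.1 TPM in the R206H libraries. The 3 mutant libraries were nearly equal and all below wild-type. The means were 126 ± 4.93 and 115 ± 1.25 TPM, with a log2 value of -0.13 (SE 0.0509) that did not pass with limma (adjusted p = 0.16) or voom (adjusted p = 0.106). Mdm2 (ENSMUSG00000020184, chr10:117688875-117710758) had 148.7, 146 and 147.6 TPM in wild-type, the smallest spread of any member relative to its mean, and 136.8, 143.7 and 118 TPM in R206H. R206H library 3 stood lower than the other mutant libraries. The log2 value of Mdm2 was -0.15 (SE 0.0775), with a 95% interval of -0.34 to 0.03, and did not pass with limma (adjusted p = 0.259) or voom (adjusted p = 0.165). The ratio of Mdm2 to Trp53 was 1.13 to 1.2 in wild-type and 1.03 to 1.23 in R206H, and these groups overlapped (exact permutation p = 0.9). Taken alone, each of the 9 members had an exact permutation p of 0.1 (two-sided), and no smaller value is possible here.

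**Figure D2:**
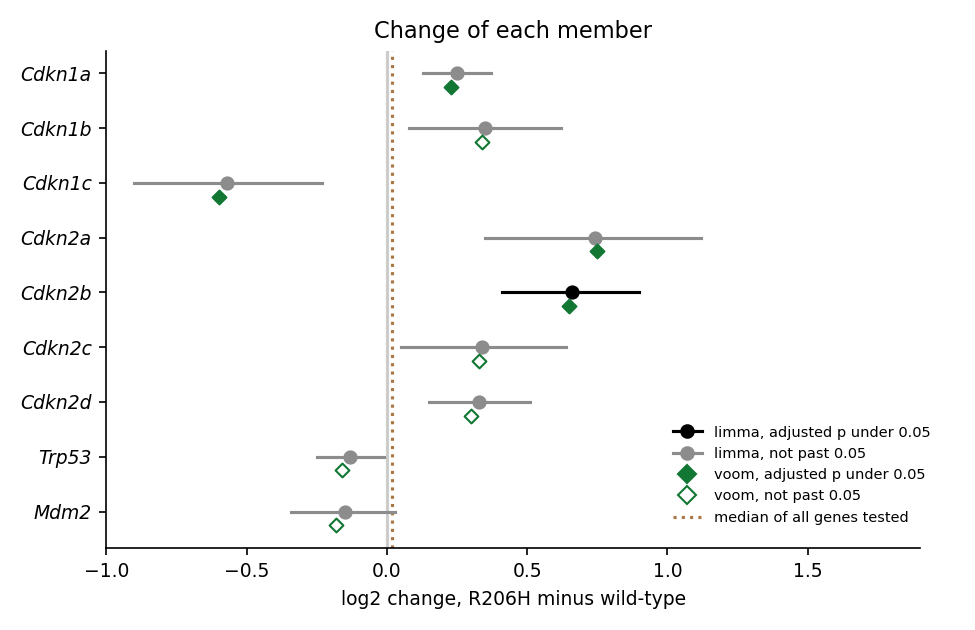
Log2 change of each member, R206H minus wild-type (horizontal axis), from limma with its 95% interval (circles and lines) and from voom on rebuilt reads (diamonds), with the median of all genes tested as a dotted line at 0.02. Filled black or green symbols mark an adjusted p under 0.05: Cdkn2b with limma, and Cdkn2b, Cdkn2a, Cdkn1a and Cdkn1c with voom.

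The estimated depth was 17500000 to 24600000 assigned reads per library, and the members had from 256 reads (Cdkn2c) to 13327 reads (Cdkn1a) in a library. Counting error alone would be 6.3% for the former and 0.9% for the latter. The spread between libraries of a genotype ran from 0.9% of the mean for Mdm2 in wild-type to 18.6% for Cdkn2a in R206H. For Mdm2 in wild-type that spread was below its counting error, which was 1.4% to 1.7% over all libraries of both genotypes. The same held for Trp53 in R206H, with 1.1% against 1.7% to 2.1% over all libraries of both genotypes. In these bulk samples, a change in how many cells of a type were present and a change in RNA per cell cannot be told apart.

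TPM is per length, so levels can be set beside each other across genes, as far as the lengths used, which are not given, match the transcripts. For Cdkn2a the exon union is 1172 nt and its transcripts are 852 and 895 nt, so its place in the order depends on the length used. In wild-type cells the order by mean was Cdkn1a, Cdkn1c, Mdm2, Trp53, Cdkn2b, Cdkn2d, Cdkn2a, Cdkn1b and Cdkn2c, and of these neighbours Cdkn2d and Cdkn2a had overlapping libraries. In R206H cells Cdkn2b came second at 157 TPM, beside Cdkn1c at 154 TPM, and their libraries overlapped. Overlap was also seen in R206H between Cdkn1c and Mdm2, between Cdkn2a and Cdkn2d, and between Cdkn1b and Cdkn2c. The 7 inhibitor genes summed to 993.7, 1000.4 and 1006.8 TPM in the wild-type libraries and to 1139, 1112.9 and 1162.5 TPM in the R206H libraries.

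Within that sum, Cdkn1a took 51.4% to 55.8% in wild-type and 53.4% to 57.6% in R206H. Cdkn1c took 18.6% to 26.4% in wild-type and 12.4% to 15.3% in R206H. Cdkn2b took 9.1% to 10.9% in wild-type and 12.7% to 15.4% in R206H. The ratio of Cdkn1c to Cdkn2b within a library was 1.7, 2.64 and 2.79 in wild-type and 1.2, 0.99 and 0.8 in R206H. This ratio does not depend on the scaling of a library, and its groups did not overlap (exact permutation p = 0.1, two-sided, again the smallest possible).

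**Figure D3:**
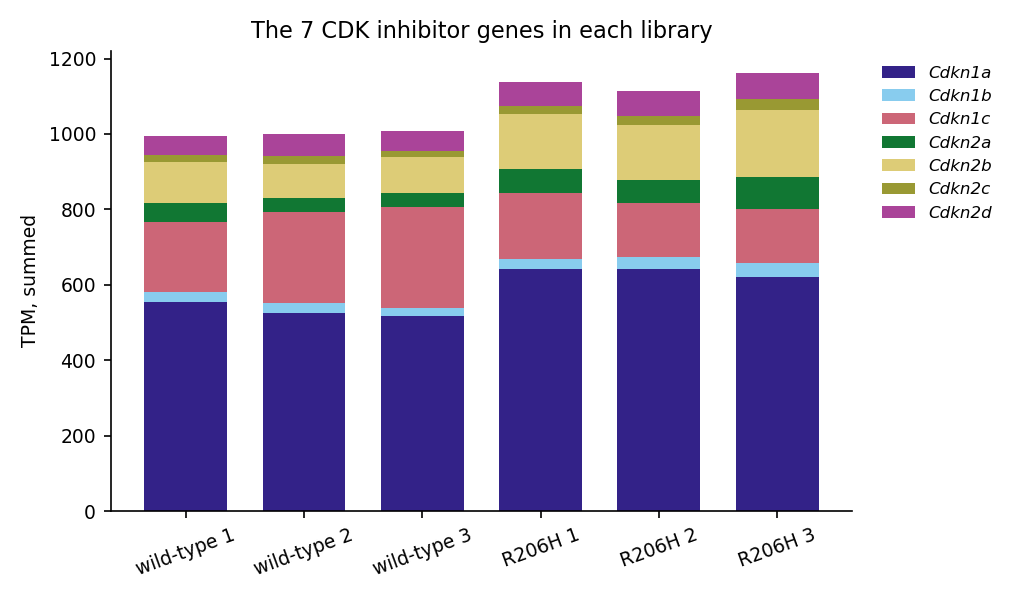
Summed TPM of the 7 CDK inhibitor genes (vertical axis, from 0) in each of the 6 libraries, stacked by gene. Cdkn1a makes up 51.4% to 57.6% of each bar, the Cdkn1c segment is smaller and the Cdkn2b segment larger in the R206H bars, and the sums are 993.7 to 1006.8 TPM in wild-type and 1112.9 to 1162.5 TPM in R206H.

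Direct targets of p53 other than Cdkn1a and Mdm2 had values in both directions. Of 32 measured, none passed with limma and 17 had an unadjusted p under 0.05, against 26.1% of all genes. Of these 17, 11 were higher and 6 lower in R206H. The groups of libraries did not overlap upward in 13 of the 32, against 17.9% of all genes. Downward they did not overlap in 6, against 15%. By voom 4 were called higher and 4 lower, against 4.61% and 4.12% of all genes. The median log2 value was 0.09, against 0.02 over all genes, with 18 positive and 14 negative. The 4 called higher by voom were Psrc1, Btg2, Phlda3 and Ephx1, and the 4 called lower were Perp, Plk2, Rrm2b and Plk3. Btg2, an antiproliferative factor, had 82.8, 68.4 and 64.5 TPM in wild-type and 95.6, 104.3 and 106.5 TPM in R206H (log2 value 0.51, limma adjusted p = 0.0518). Phlda3, an inhibitor of AKT signalling, had 490.6 to 512.5 TPM in wild-type and 586.8 to 667.5 TPM in R206H (log2 value 0.31, adjusted p = 0.0518). The spindle-associated gene Psrc1 had a log2 value of 0.47 (adjusted p = 0.0511).

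Perp, which encodes a desmosome-associated membrane protein also found in epithelia, had 52.4 to 62.5 TPM in wild-type and 35.7 to 44.8 TPM in R206H (log2 value -0.47, adjusted p = 0.0618). For the polo-like kinase gene Plk2 the log2 value was -0.64 (adjusted p = 0.0618), and Rrm2b, a ribonucleotide reductase subunit, had 5.34 to 5.44 TPM in wild-type and 3.39 to 3.68 TPM in R206H (log2 value -0.48, adjusted p = 0.0731). The apoptosis gene Bax had a log2 value of -0.04 and the cyclin G1 gene Ccng1 0.02, with adjusted p of 0.64 and 0.917. Other targets that voom did not call had larger values in both directions. Trp53inp1 had 0.58, Bbc3 0.45 and Gdf15 -0.59, with limma adjusted p of 0.0926, 0.133 and 0.137. Beside these values, the 12 epithelial markers summed to 545 to 638 TPM in wild-type and 197 to 400 TPM in R206H. Of the 10 epithelial markers tested, 2 fell with limma, Cldn3 and Epcam, against 0.79% of all genes. All 10 were lower at an unadjusted p under 0.05, against 26.1% of all genes in either direction. By voom 6 were called lower, against 4.12%. None of the 12 epithelial markers was at 0 in every library. Their part in the values above was not tested.

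Of 20 regulators of p53 tested, none passed with limma, 5 had an unadjusted p under 0.05 and voom called 1 lower, with a median of 0.00. These counts are near the shares of all genes, 26.1% and 4.12%. The gene called by voom was Npm1, whose nucleolar product binds ARF, at 1505, 1710 and 1727 TPM in wild-type and 1322, 1347 and 1082 TPM in R206H (log2 value -0.40, limma adjusted p = 0.0761, voom adjusted p = 0.0351). Mdm4, the partner of MDM2, had a log2 value of 0.26 (adjusted p = 0.13), opposite in sign to that of Mdm2. The ubiquitin ligase gene Rchy1 had 0.22 (adjusted p = 0.0981) and the acetyltransferase gene Ep300 0.18 (adjusted p = 0.157).

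The regulators of CDK inhibitor transcription and turnover had 1 gene that passed among 26 tested, Myc, which was lower. Of all genes, 0.79% passed downward. At an unadjusted p under 0.05 there were 6 of 26, against 26.1% of all genes. By voom 3 were called lower, Myc, Ets1 and Smad3, against 4.12% of all genes. MYC represses Cdkn1a and Cdkn2b through MIZ1. Myc had 116, 113.7 and 115.9 TPM in wild-type and 85.8, 71.1 and 66 TPM in R206H, and fell by 0.63 on the log2 scale (SE 0.0957, limma adjusted p = 0.0454). With voom its adjusted p was 0.0143. For Ets1, an activator of p16 transcription, the value was -0.63 (limma adjusted p = 0.0511, voom adjusted p = 0.0185). Id1, which opposes it and is induced by bone morphogenetic proteins, had 239.9 to 337.6 TPM in wild-type and 380.1 to 415.6 TPM in R206H (log2 value 0.46, adjusted p = 0.0776). Smad3, a transducer of TGF-beta signals, had a log2 value of -0.34 (limma adjusted p = 0.0993, voom adjusted p = 0.0439). Bmi1, a Polycomb gene known for silencing Cdkn2a, had -0.03 (adjusted p = 0.853), and the MIZ1 gene Zbtb17 had -0.05 (adjusted p = 0.781). Other Polycomb genes of the list ran from -0.42 in Cbx7 to 0.18 in Cbx8 (limma adjusted p = 0.218 and 0.405). Cbx7 was low, with means of 1.63 TPM in wild-type and 0.97 TPM in R206H (voom adjusted p = 0.0702). The median of the list was -0.01.

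Cyclins, CDKs and regulators of CDK activity such as Wee1, a kinase that inhibits CDK1, and the Cdc25 phosphatases counted 20 tested genes, of which limma called none. Of these, 10 had an unadjusted p under 0.05 (26.1% of all genes did), 3 upward and 7 downward. By voom 4 were called lower (4.12% of all genes were), Ccne2, Ccne1, Wee1 and Cdk6. The median was -0.08. Ccne2, a cyclin that activates CDK2, had 22.8, 29 and 29.3 TPM in wild-type and 17.7, 19.9 and 15.2 TPM in R206H (log2 value -0.59, adjusted p = 0.0638). For the kinase genes that the INK4 proteins target, the log2 values were -0.48 in Cdk6 (adjusted p = 0.109) and 0.01 in Cdk4 (adjusted p = 0.929). The D-type cyclin gene Ccnd2 had 0.26 (adjusted p = 0.0706) and Ccnd1 -0.22 (adjusted p = 0.158).

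Downstream of the kinases, 1 of 15 pocket protein and E2F genes fell, E2f8, a repressive E2F, from 25.8, 26.9 and 27 TPM in wild-type to 19.85, 17.7 and 15.4 TPM in R206H (log2 change -0.57, SE 0.0993, limma adjusted p = 0.0476). Of all genes, 0.79% passed downward with limma. Among these 15 genes, 4 had an unadjusted p under 0.05, against 26.1% of all genes. By voom 1 was called lower, against 4.12%. The median over these 15 genes was -0.12. Of 24 proliferation genes, 1 fell, Foxm1, a transcription factor of G2 and mitosis, at 62 to 63.6 TPM in wild-type and 49.5 to 53.3 TPM in R206H (log2 change -0.30, SE 0.0553, adjusted p = 0.0498). The replication clamp gene Pcna had -0.25 (adjusted p = 0.0501), Birc5 -0.31 (adjusted p = 0.0609) and the helicase subunit gene Mcm3 -0.22 (adjusted p = 0.0728). In the proliferation list 23 of 24 values were negative, as were 6869 of 14818 over all genes tested. The groups did not overlap downward in 19 against 15% of all genes, and the median was -0.22. At an unadjusted p under 0.05 there were 16, all lower, against 26.1% of all genes in either direction. Passing downward were 1 of 24 with limma against 0.79% of all genes, and 5 with voom against 4.12%. Mki67, the gene for the Ki-67 antigen, had a log2 value of -0.02 (adjusted p = 0.848).

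**Figure D4:**
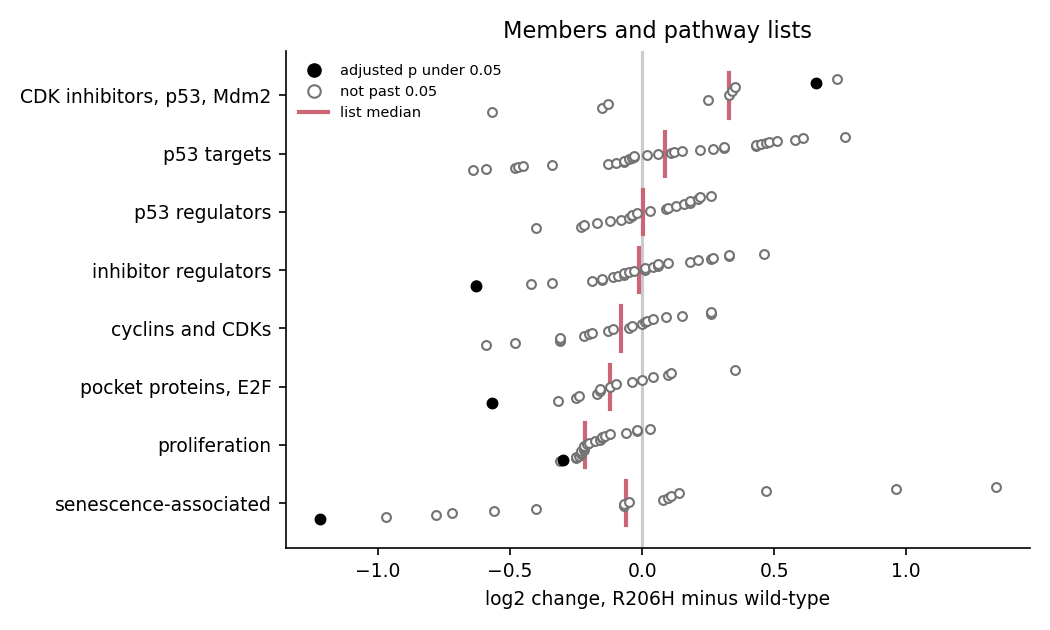
Log2 change, R206H minus wild-type (horizontal axis), of each tested gene (circles, ordered by value within a row) in the members and 7 pathway lists, with the median of each row as a bar. Filled circles passed an adjusted p of 0.05 with limma: Cdkn2b upward, and Myc, E2f8, Foxm1 and Mmp13 downward. The proliferation row lies almost wholly below 0, with a median of -0.22.

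Of 16 genes associated with senescence, 1 fell, the collagenase gene Mmp13, from 25.3, 29.5 and 28.1 TPM in wild-type to 7.68, 14.7 and 12.5 TPM in R206H (log2 change -1.22, SE 0.21, adjusted p = 0.0476). The urokinase receptor gene Plaur and the chromatin gene Hmga1 had log2 values of -0.97 and -0.78 (adjusted p = 0.0508 for each), and Igfbp4 had 0.47 (adjusted p = 0.105). Igfbp3 had 102.5, 44.6 and 36 TPM in wild-type and 103.8, 126.3 and 212.9 TPM in R206H, so wild-type library 1 lay beside R206H library 1 (log2 value 1.34, limma adjusted p = 0.106, voom adjusted p = 0.0456). By voom 1 gene of the list was called higher, Igfbp3, and 3 lower, Mmp13, Plaur and Hmga1, against 4.61% and 4.12% of all genes. With limma 0.79% of all genes passed downward. At an unadjusted p under 0.05 there were 7 of 16, against 26.1% of all genes. The lamin gene Lmnb1, which is lost in senescent fibroblasts, had -0.07 (adjusted p = 0.454), and the cytokine gene Il6 had 0.10 (adjusted p = 0.905). The list had 7 positive and 9 negative values and a median of -0.06. Mmp13 and the other genes that passed in these lists, Myc, E2f8 and Foxm1, did not pass in the limma fits without wild-type library 2 or 3 or R206H library 2 or 3. Myc, E2f8 and Foxm1 also did not pass without wild-type library 1, where 288 genes of the whole table did. In the former 4 fits 5, 1, 0 and 1 genes of the whole table passed, in that order, which bears on every gene said here to have risen or fallen.

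Genes whose log2 values followed a member most closely over the 6 libraries were named by Pearson's r, as a description. The 6 points fall into 2 genotypes, which all of these correlations share, and between 56 genes (for Trp53) and 568 genes (for Cdkn2b) had r over 0.95. Closest to Cdkn2b were the chemokine gene Cxcl12 (r = 0.998), Ghdc and the basement membrane gene Nid2 (r = 0.997 for each). Cxcl12 had 44.3, 34.7 and 38.7 TPM in wild-type and 59.7, 60.8 and 78.6 TPM in R206H, with the same highest library as Cdkn2b. Closest to Cdkn2a were Wdr13, Dhx40 and the glycogen phosphorylase gene Pygb, with r of 0.998, 0.998 and 0.997. Closest to Cdkn1a were the LIM protein gene Csrp2 (r = 0.998), the fibulin gene Fbln2 (r = 0.997) and Hps6 (r = 0.993). Fbln2 had 730.1 to 823.7 TPM in wild-type and 994.2 to 1049 TPM in R206H.

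Cdkn1c was followed most closely by Plpp2 (r = 0.999), Igsf11 and the semaphorin gene Sema3c (r = 0.996 for each). Plpp2 had 135, 168.2 and 177.5 TPM in wild-type and 131.1, 114.6 and 114.5 TPM in R206H, with wild-type library 1 again close to R206H library 1. Closest to Cdkn1b were Ptpra, Ext2 and Selenoo, to Cdkn2c Dkk1, Mrgprf and Bsg, and to Cdkn2d B3galnt1, Pgghg and Bmp5, with r from 0.990 to 0.997. Closest to Trp53 were Tigit, Sestd1 and the chromatin remodeller gene Smarcc1, and to Mdm2 Tbc1d1, Nup62cl and Ska2, with r from 0.992 to 0.998. Tigit was measured at 0.548 to 3.96 TPM, a low level. Among the members themselves, Cdkn1b with Cdkn2c (r = 0.99) and Cdkn2a with Cdkn2b (r = 0.98) were closest, and Trp53 with Mdm2 had r = 0.70 over the same 6 libraries.

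Neighbouring genes were read beside the members from the annotation. Beside the Cdkn2a and Cdkn2b pair, Mtap had 160.5, 165.6 and 168.2 TPM in wild-type and 148.2, 149 and 123 TPM in R206H (log2 value -0.24, adjusted p = 0.133), the opposite sign to Cdkn2a and Cdkn2b, and Dmrta1 was at most 0.192 TPM. Wrap53, which starts 104 bases from Trp53 on the other strand, had a log2 value of -0.18 (adjusted p = 0.199), the same sign as Trp53. Next to Cdkn1b, Apold1 fell from 4.65 ± 1.05 to 1.44 ± 0.238 TPM (log2 change -1.20, adjusted p = 0.0464), while Gpr19 on the other side had 0.00 (adjusted p = 0.991). Beside Cdkn1c, Kcnq1 was at most 0.785 TPM and Slc22a18 had a log2 value of -0.15 (adjusted p = 0.739). Srsf3, next to Cdkn1a, had -0.04 (adjusted p = 0.727).

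**Figure D5:**
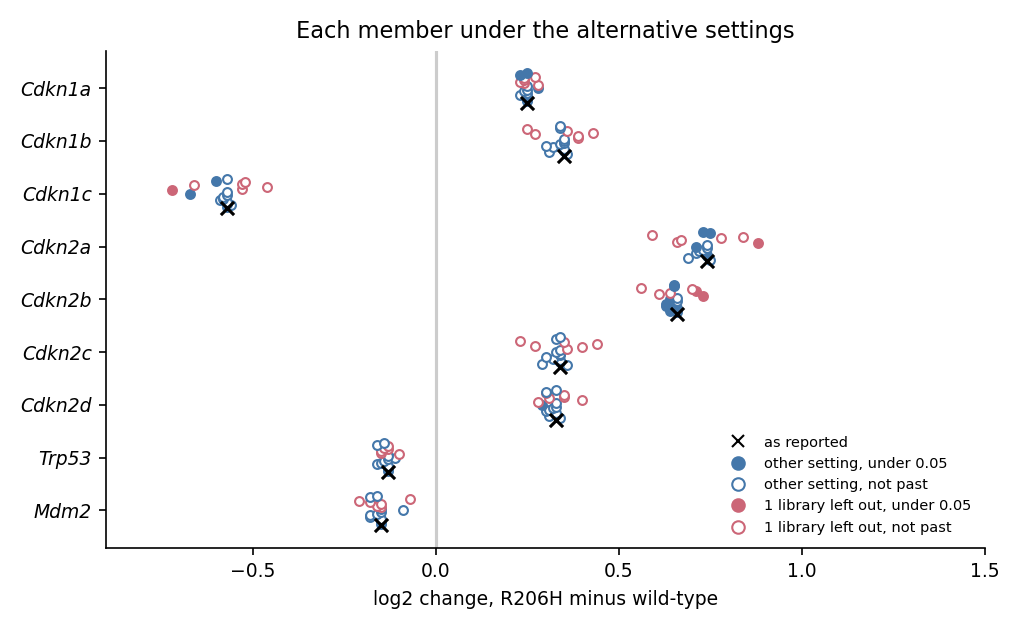
Log2 change of each member (horizontal axis) as reported (crosses) and under 18 other settings, with fits that leave out 1 library in red and the rest in blue, filled where the adjusted p was under 0.05. No value crosses 0, Cdkn2b is filled in 11 of the 18, and Cdkn1b, Cdkn2c, Trp53 and Mdm2 are never filled.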

How the data were processed

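The authors deposited 1 table, with a TPM value (transcripts per 1000000) for each Ensembl identifier and library. Each of the 6 columns sums to 1000000. The submitters' processing notes name Trimmomatic, STAR, featureCounts, Subread, DESeq2, mm10 and GRCm38. Not given in the sources used here were their roles and versions, the annotation, the gene lengths and the strand setting. Since TPM is relative, a rise in abundant RNA lowers all else, and RNA without poly(A) selection includes unspliced RNA.

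A gene was tested if 3 or more libraries had at least 1 TPM, as all 9 members did, with limma 3.58.1 (R 4.3.3) on log2(TPM + 1), two-sided, with the trend option and genotype as the only term. Adding 1 TPM before taking log2 understates changes of low genes. Reads were rebuilt with exon-union lengths of GENCODE release M21, which matched 49056 identifiers. Within 0.05, 91.2% to 91.5% of values under 100 reads came out whole. These reads went into voom. Python 3.11.15 and pandas 2.3.3 were used for joins.

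The members and lists were chosen with earlier results of these data known. Besides the 9 members, the rule named up to 4 genes per list by smallest p, genes past the threshold, the 3 genes most like each member, neighbours and Acvr1. Plk2, Ephx1, Rrm2b, Plk3, Igfbp3, Prph, Tubb3, Sox10, Cldn3, Epcam, Grhl2, Col1a1, Vim, Bax, Ccng1, Trp53inp1, Bbc3, Gdf15, Cdk6, Cdk4, Ccnd1, Bmi1, Cbx7, Cbx8, Zbtb17, Mki67, Lmnb1 and Il6 were named after their values were seen. No pair of libraries shared more than 1 non-zero value.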

Additional observations from a re-analysis of the deposited data

How the results depend on the processing

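Over 18 alternatives no member changed direction, and of 162 values 142 kept their side of the threshold, 7 no longer passed and 13 newly passed. The members passing, 1 as reported, were 0 with no filter, without the trend and with the replicate block, 3 with a filter at TPM 5 and without genes under 300 nt (chosen after seeing the data), 4 with voom and 5 with library weights. With a library left out they were 0 to 3.

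Of all genes, 303 passed as reported, 129 with a pseudocount of 0.1, 2 with no filter, 587 at TPM 5, 200 with quantile normalization, 27 without the trend, 1906 with library weights, 1290 with voom, 651 without genes under 300 nt, and 0 to 722 with a library left out. Of the passing genes, 61.4% were higher as reported, 71.3% with a pseudocount of 0.1, 70.4% without the trend, 52.8% with voom, 76% without wild-type library 1, 56.9% without R206H library 1, and 40% of the 5 without wild-type library 2. The pathway lists held 4 passing genes as reported and 1, 0, 15, 2, 0, 33, 26 and 15 in that order, and 0 to 18 with a library left out. With the replicate block, 0 genes passed in all, 0 in the lists and 3301 at an unadjusted p under 0.05. Same-numbered libraries had correlated deviations of only -0.03 to 0.06, so the numbers were not taken as pairs. The cause of these shifts was not tested.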
